A study of Rattus norvegicus with 35 samples.

Results

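Female rats fed a high potassium diet (HK) were compared with female rats fed a normal potassium diet (NK), gene by gene, in RNA of the kidney cortex. The libraries were chosen by their titles, 5 for HK and 6 for NK, which is 11 of the 35 libraries of the series. Genes were taken where at least 5 of the 35 libraries had an FPKM of 1 or more, which left 14264 of the 32545 genes in the table. FPKM is a read count divided by gene length and library size. The series also holds potassium-deficient (DK) females and males on all 3 diets, and its title places it in work on potassium intake and salt-sensitive hypertension.

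Both groups were labelled WT, and the strain is not named in the labels. Each diet contained 4% NaCl, with 0.36% potassium in NK and 1.41% in HK, so the comparison holds salt constant and asks what extra potassium does to the cortex of salt-loaded females. Rats received a telemeter for blood pressure when 8 weeks old, feeding lasted 5 weeks, and the cortex of 1 kidney was frozen. Libraries are called by group and replicate number, HK 1 to HK 5 and NK 1 to NK 6. Nothing in the labels states that the libraries came from separate rats, so the spread between libraries may be technical. In the main fit, p-values and SE rest on the spread within groups, pooled over the whole series. That spread includes males and DK females and is not that of HK and NK females alone.

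The kidney sets potassium balance in the late distal tubule and the collecting duct. There, principal cells take up sodium through the epithelial sodium channel (ENaC) and let potassium out through the apical channel ROMK. Aldosterone raises this exchange, and upstream the thiazide-sensitive sodium-chloride cotransporter NCC decides how much sodium arrives. Extra dietary potassium is known to switch NCC off within minutes by loss of phosphorylation and to lower blood pressure on a high salt diet. A transcript level does not report phosphorylation.

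The 11 libraries held 14.56 to 16.28 M reads in genes. Mitochondrial transcripts took 8.59% to 10.68% of them in HK and 10.19% to 12.74% in NK. NK 6 was the only NK library inside the HK range. The labelled tissue carried its markers, with proximal tubule markers summing to 10989 to 18099.8 FPKM and podocyte markers to 250.5 to 333.3. The female label held in all 11: the Y-linked gene Eif2s3y reached at most 0.113 FPKM. In a label number attached to each sample, all 5 HK and 2 NK libraries (NK 4 and NK 6) lie in the 300s and the other 4 NK libraries in the 200s; the labels do not say what the number means. NK 2 stood apart most, with an SD of 0.418 around its group mean on the log2 scale against 0.291 to 0.323 in the other 10 libraries. It also held the largest sum of blood cell markers, 917.9 FPKM, where the other 10 libraries had 76.7 to 330.1. NK 4 carried adipose markers at a sum of 567.9 FPKM, where the other 10 libraries had 21 to 47, and urothelium markers at 51.5 FPKM. Urothelium markers summed to 21.3 FPKM in HK 5 and to 1.59 to 5.33 in the remaining libraries.

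No gene passed the test between HK and NK. Of the 14264 genes, 0 (0%) were called by limma at a Benjamini-Hochberg adjusted p under 0.05, and the smallest adjusted p was 0.621. At an unadjusted p under 0.05 there were 381 genes (2.67%), 200 higher in HK (1.4%) and 181 lower (1.27%). With no true change in any gene, a share of 0.05 would be expected under this cut on average, which is more than was found. Limma-voom on the reads recovered from the FPKM values also called 0, with 371 genes at an unadjusted p under 0.05. The ranges of the 2 groups did not overlap for 29 genes (0.203%), with HK above NK in every library for 16 (0.112%) and below for 13 (0.0911%). All log2 changes below are of mean log2(FPKM + 0.5) in HK minus NK. Outside Mmp9 and the genes under Other observations, each tested gene named below had an adjusted p of 1 in this limma fit.

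The size of change was small across the transcriptome. The median log2 change was -0.0032, the lower and upper quartiles were -0.078 and 0.074, and the median size of change without regard to sign was 0.076. In the same NK libraries set against DK females, that median size was 0.246, and 39.1% of genes were called; DK against HK called 36.4%. The 95% interval of the HK change lay within 2-fold in either direction for 13218 genes (92.7%) and within 1.5-fold for 11513 (80.7%). Only 89 genes had a fitted change above 2-fold, 50 higher and 39 lower, and 42 of these 89 were protein coding.

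**Figure D1:**
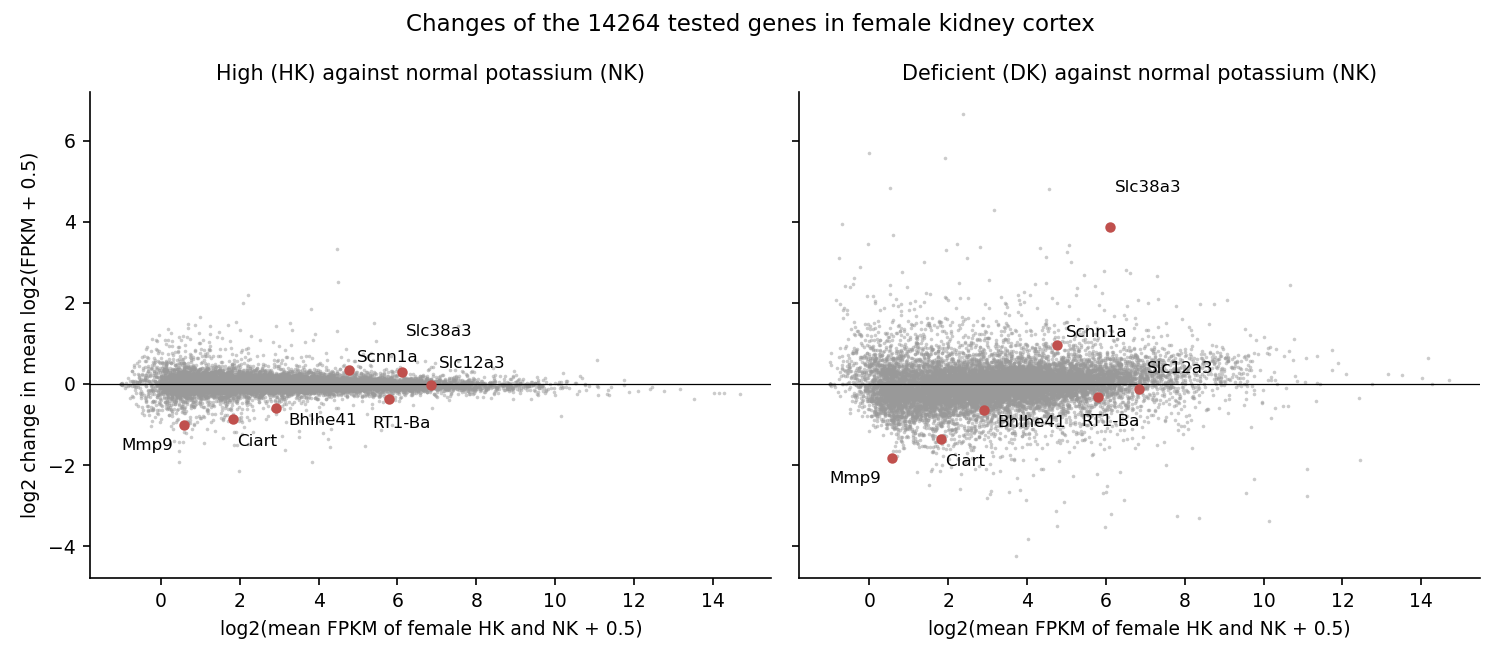
Log2 change of each tested gene against its mean level, for HK against NK (left) and DK against NK (right) in females; grey points are genes, red points are labelled genes, and both panels use the same 6 NK libraries. On the left 0 genes passed the limma test, and on the right 39.1% did.

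Among the genes of distal sodium and potassium transport, 1 subunit of the sodium channel and 1 potassium-absorbing pump had the lowest p, and none passed the test. Scnn1a, the alpha subunit of ENaC, stood at 23.9, 36.1, 28.7, 31.3 and 30.2 FPKM in HK 1 to HK 5 and at 18.2 to 27.9 in NK, with a median of 24.4. Its log2 change was 0.35 (SE 0.16, 95% interval 0.023 to 0.67, unadjusted p = 0.0369). HK 1 lay inside the NK range and the other HK libraries above it. Scnn1b, the beta subunit, stood at 25.4, 31.5, 19.3, 19 and 17.1 FPKM against 15.4 to 21.4 in NK (median 17.7), a log2 change of 0.28 (SE 0.17, unadjusted p = 0.111). Scnn1g, the gamma subunit, stood at 19.8, 24.6, 17.4, 14.8 and 15.1 FPKM against 13.7 to 21.2 in NK (median 16.3), a log2 change of 0.12 (SE 0.18, unadjusted p = 0.496). For both subunits HK 2 was the highest of the 11 libraries and the groups overlapped.

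The potassium channel ROMK and the sodium-chloride cotransporter had log2 changes near 0. Kcnj1, which encodes ROMK, stood at 70.4, 117, 107, 75.8 and 98.5 FPKM in HK and at 77.8 to 118 in NK (median 83.7), a log2 change of 0.069 (SE 0.16, 95% interval -0.27 to 0.40, unadjusted p = 0.679). Slc12a3, which encodes NCC, stood at 125, 137, 119, 105 and 80.7 FPKM in HK and at 83.3 to 147 in NK (median 111), a log2 change of -0.021 (SE 0.22, 95% interval -0.47 to 0.43, unadjusted p = 0.925). The groups overlapped over most of their range for both genes, and the sign for Slc12a3 turned in 10 of 27 alternative analyses. These intervals hold the changes compatible with the 5 and 6 libraries, and they are not limits of detection. Of the basolateral channel pair that senses plasma potassium in the distal convoluted tubule, Kcnj10 stood at 10.3, 16.4, 15.5, 13.5 and 11.3 FPKM in HK and 7.13 to 13.2 in NK (median 11.6), with a log2 change of 0.30 (SE 0.27, unadjusted p = 0.269). Its partner Kcnj16 had a log2 change of -0.043 (SE 0.15, unadjusted p = 0.779) and Wnk4, the kinase upstream of NCC, -0.12 (SE 0.13, unadjusted p = 0.375). Kcnma1, the pore of the flow-activated BK channel, was below the filter, with 0.291 to 0.563 FPKM in HK and 0.137 to 0.605 in NK.

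Genes of aldosterone action gave small values. Hsd11b2, which shields the mineralocorticoid receptor from glucocorticoid, stood at 282, 288, 218, 267 and 230.2 FPKM in HK and at 180.5 to 239.8 in NK (median 214), a log2 change of 0.29 (SE 0.16, 95% interval -0.034 to 0.62, unadjusted p = 0.0776). HK 3 and HK 5 lay inside the NK range and the other HK libraries above it. Sgk1, a kinase induced by aldosterone, stood at 27, 54.3, 30.3, 73.4 and 28.2 FPKM in HK and 26.6 to 40.9 in NK (median 33.5), a log2 change of 0.25 (SE 0.29, unadjusted p = 0.399). HK 2 and HK 4 were above every NK library and the other HK libraries were not. The mineralocorticoid receptor gene Nr3c2 had a log2 change of 0.023 (SE 0.19, unadjusted p = 0.906), and its sign turned in 7 of 27 alternatives. Cnksr3, a scaffold of ENaC regulation, stood at 9.19, 8.96, 10.1, 10.2 and 9.96 FPKM in HK and 7.13 to 9.31 in NK (median 8.6), a log2 change of 0.19 (SE 0.073, unadjusted p = 0.0149). The aldosterone list had 8 of 14 tested members with a positive change, a median of 0.036, and 2 members, Cnksr3 and Scnn1a, with an unadjusted p under 0.05. With the 300s alone 12 of 14 were positive (median 0.158).

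A potassium-absorbing pump had the largest log2 change of the transport genes. Atp12a, the catalytic subunit of the colonic-type proton-potassium pump, which takes up potassium in the collecting duct, stood at 3.24, 5.04, 1.46, 3.89 and 1.61 FPKM in HK and at 0.667 to 5.11 in NK (median 1.02). Its log2 change was 0.87 (SE 0.38, 95% interval 0.087 to 1.64, unadjusted p = 0.0304). NK 6 was the highest of the 11 libraries and the other NK libraries lay below every HK library. In the libraries numbered in the 300s alone, 5 HK and 2 NK, the log2 change of Atp12a was 0.0024.

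**Figure D2:**
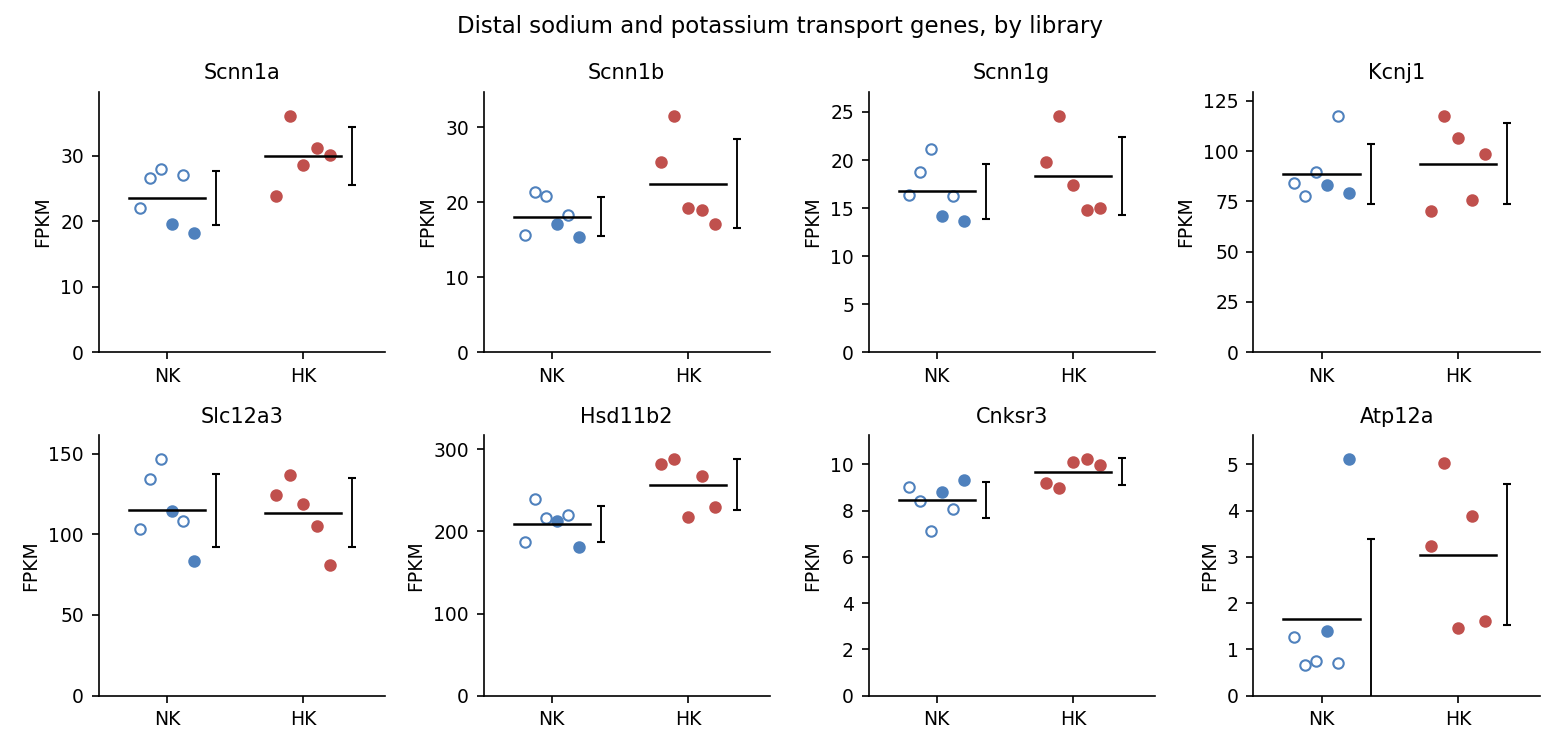
FPKM of 8 distal transport genes in each female library, NK in blue and HK in red; open circles are libraries numbered in the 200s, filled circles those in the 300s, lines are means and bars 1 SD, which are clipped at 0 for Atp12a. The groups overlap for all 8 genes.

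Of the 26 tested regulators of potassium and sodium transport, 17 had a positive change, with a median of 0.073 against -0.0032 over all genes, and 2 (Atp12a and Scnn1a) had an unadjusted p under 0.05. In the principal cell list, all 12 tested members had a positive change, with a median of 0.252. The member of lowest p was Avpr2, the vasopressin receptor that controls water channels, at 13.5, 17.8, 18.6, 13.6 and 20.0 FPKM in HK and 10.8 to 16.4 in NK (median 12.3), a log2 change of 0.36 (SE 0.17, unadjusted p = 0.0413). Aqp2, the water channel itself, stood at 78.2, 265, 102, 69.5 and 179.6 FPKM against 70.4 to 114 (median 99.3), a log2 change of 0.41 (SE 0.34, unadjusted p = 0.238). HK 2 and HK 5 were above every NK library for both genes. The summed principal cell level was 578.5 to 990.2 FPKM in HK and 502.8 to 637.9 in NK. In bulk RNA more cells of a type and more RNA per cell cannot be told apart. The renal medulla list, which shares Aqp4 and Fxyd4 with the principal cell list, had 8 of 10 members positive (median 0.063). Its sums were 167.7 to 310 FPKM in HK and 139.8 to 238.2 in NK. HK 2 and HK 5 had the highest medulla sums of the HK libraries, 235.9 and 310 FPKM. The part of the medulla in the principal cell values was not tested. The principal cell median was 0.166 with the number series (200s or 300s) as a covariate, and 9 of 12 members were positive without NK 2. In the males of the series the list had a median of 0.269, within the range of the other nephron lists there, 0.227 to 0.311 for thick ascending limb, distal convoluted tubule, intercalated cell, podocyte and proximal tubule.

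The lists of other nephron segments had medians nearer 0 and, except for the thick ascending limb, their signs depended on the libraries used. The thick ascending limb median was 0.068 in the 300s alone and 0.066 without NK 4. The thick ascending limb list had 9 of 11 members positive (median 0.083), the distal convoluted tubule list 7 of 14 (median 0.00031), the intercalated cell list 7 of 17 (median -0.023) and the proximal tubule list 10 of 22 (median -0.031). In the 300s alone the intercalated cell list had 15 of 17 positive (median 0.173) and the distal convoluted tubule list 11 of 14 (median 0.156). Without NK 2 the intercalated median was 0.024 and the proximal median 0.026. Without NK 6 the distal convoluted tubule median was -0.085 and the intercalated median -0.075, and without HK 3 the proximal median was -0.084. Umod, the main secreted protein of the thick limb, stood at 870.1, 1705, 1604, 1207 and 1978 FPKM in HK and 1176 to 1558 in NK (median 1457), a log2 change of 0.012 (SE 0.20, unadjusted p = 0.953). In intercalated cells, the chloride-bicarbonate exchanger Slc26a4 had a log2 change of -0.065 (SE 0.28, unadjusted p = 0.815), the anion exchanger Slc4a1 -0.25 (SE 0.18, unadjusted p = 0.182) and the ammonia channel Rhcg 0.056 (SE 0.16, unadjusted p = 0.736). Trpm6, the magnesium channel of the distal convoluted tubule, had 0.046 (SE 0.15, unadjusted p = 0.753).

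In the proximal tubule 1 member had an unadjusted p under 0.05 in each direction. Gatm, the first enzyme of creatine synthesis, stood at 469, 552, 1984, 352.1 and 1280.2 FPKM in HK and at 843 to 1987 in NK (median 1286), a log2 change of -0.79 (SE 0.38, 95% interval -1.56 to -0.017, unadjusted p = 0.0456). HK 1, HK 2 and HK 4 lay below every NK library, while HK 3 was level with the highest. Aqp1, the constitutive water channel, stood at 525, 531, 550.4, 455 and 576 FPKM against 418 to 517 (median 453), a log2 change of 0.21 (SE 0.10, unadjusted p = 0.0458). Cyp27b1, the hydroxylase that activates vitamin D, was low in both groups, at 0.959, 1.1, 0.602, 1.37 and 0.271 FPKM and 0.269 to 2.23 (median 1.1), with a log2 change of -0.21 (SE 0.36, unadjusted p = 0.56).

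Slc38a3 and Pck1, which are known to respond to acid load and potassium depletion, had smaller log2 changes in HK than in DK. Slc38a3, a proximal glutamine transporter, stood at 108, 95.6, 56.8, 57.9 and 61.7 FPKM in HK and 45.2 to 105 in NK (median 54.6), a log2 change of 0.31 (SE 0.38, unadjusted p = 0.43), or -0.082 in the 300s alone. Pck1, the gluconeogenic carboxykinase, stood at 1819.5, 2062, 1789, 1523 and 1366 FPKM and 1208 to 1985 (median 1549), a log2 change of 0.15 (SE 0.26, unadjusted p = 0.569). Set against the same NK libraries, DK females had log2 changes of 3.86 for Slc38a3 and 2.44 for Pck1 (limma adjusted p = 8.32e-10 and 4.67e-09). Rbp4, the plasma retinol carrier, stood at 3.28, 1.97, 2.47, 1.33 and 1.05 FPKM in HK and 1.73 to 31.8 in NK (median 2.33). Its log2 change was -0.84 with all libraries and -0.26 without NK 4, the library with adipose markers, against 6.66 in DK. The ammonia and acid-base list had 11 of 24 members positive (median -0.024, and 0.018 without NK 2).

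Angiotensin pathway genes were likewise not separated. Ace, the angiotensin-converting enzyme, had a log2 change of 0.16 (SE 0.18, unadjusted p = 0.376) and Agtr1a, the type 1a receptor, -0.11 (SE 0.11, unadjusted p = 0.33). The list had 3 of 13 members positive, with a median of -0.068.

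The genes of lowest p with a higher level in HK were Fam83e, Acot7, Ptprn, Plxnb2, Cgn, Pelp1, Tomm40l, Ogg1, Lars2, Slc25a34, Tmem177 and Vnn1, none of which passed the test. Their log2 changes lay between 0.16 for Pelp1, a nuclear receptor coregulator, and 0.76 for Vnn1, a pantetheinase. Plxnb2, a semaphorin receptor, stood at 59.9, 61.2, 62, 62.4 and 61.5 FPKM in HK and at 51.3 to 57.3 in NK (median 53.6), a log2 change of 0.19 (SE 0.059, unadjusted p = 0.0035). Ptprn, a receptor-type phosphatase family member of secretory granules, stood at 27.1, 20.0, 20.9, 30.6 and 20.5 FPKM against 14.4 to 19.6 (median 18.8), a log2 change of 0.39 (SE 0.12, unadjusted p = 0.00312). For Plxnb2, Ptprn and Pelp1 every HK library lay above every NK library.

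For several of the others a single NK library lay with HK. Acot7, a cytosolic acyl-CoA thioesterase, stood at 44.8, 37.6, 26.1, 33.2 and 31.3 FPKM in HK and at 16.6 to 39.7 in NK (median 21.3), a log2 change of 0.57 (SE 0.16, unadjusted p = 0.00143). Slc25a34, a mitochondrial carrier, stood at 27.9, 28.3, 20.8, 25.7 and 33.7 FPKM against 10.9 to 42.3 (median 15.5), a log2 change of 0.66 (SE 0.23, unadjusted p = 0.00666). Fam83e stood at 8.57, 9.43, 7.16, 9.62 and 9.7 FPKM against 4.63 to 8.41 (median 5.12), a log2 change of 0.59 (SE 0.16, unadjusted p = 0.000936). NK 6 was the highest NK library for all of these and for Vnn1, and HK 3 was the lowest HK library. In the 300s alone, which hold NK 6 and 1 other NK library, the log2 changes were 0.22 for Acot7, -0.045 for Slc25a34 and 0.41 for Vnn1. Mitochondrial functions recurred by name (the import channel paralogue Tomm40l, the leucyl-tRNA synthetase Lars2, Tmem177 and Slc25a34), which is a description of 12 names and was not tested as a group.

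The genes of lowest p with a lower level in HK were BC028528, Ndel1, Cd86, Jak2, Rpl10l, Dph6, Arl6ip6, Bhlhe41, RT1-Ba, Naaa, Ccdc138 and RT1-Da, again with none past the test. Jak2, a kinase of cytokine receptors, stood at 19.3, 24.7, 21.8, 17.4 and 20.2 FPKM in HK and at 19.4 to 33.4 in NK (median 27.5), a log2 change of -0.36 (SE 0.11, unadjusted p = 0.00196). Cd86, a costimulatory ligand on antigen-presenting cells, stood at 3.29, 2.4, 2.04, 2.33 and 2.31 FPKM against 2.87 to 4.06 (median 3.53), a log2 change of -0.45 (SE 0.13, unadjusted p = 0.00179). Ndel1, a dynein cofactor, stood at 47.2, 49.2, 55.4, 43.5 and 51.4 FPKM against 50.1 to 74.9 (median 60.4), a log2 change of -0.31 (SE 0.090, unadjusted p = 0.00162). The overlap rested on HK 1 for Cd86, on NK 6 for Ndel1, and on NK 4 and NK 6 for Jak2. Dph6, an enzyme of diphthamide synthesis, stood at 2.59, 2.12, 2.47, 3.34 and 2.86 FPKM against 3.43 to 5.16 (median 4.26), a log2 change of -0.57 (SE 0.18, unadjusted p = 0.00342), and was the only one of these 12 with every HK library below every NK library. Rpl10l, a copy of a ribosomal protein gene whose reads may be shared with its relatives, had -1.24 (SE 0.37, unadjusted p = 0.0022).

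Mmp9, a matrix-degrading gelatinase, had the lowest p of all 14264 genes. Its level was low, 0.794, 0.261, 0.779, 0.438 and 0.23 FPKM in HK and 0.918 to 2.19 in NK (median 1.36), which is a mean of 0.50 ± 0.273 against 1.5 ± 0.461 (SD, n = 5 and 6). Every HK library lay below every NK library. The log2 change was -1.01 (SE 0.22, 95% interval -1.45 to -0.57, unadjusted p = 5.24e-05), and the adjusted p in limma was 0.621. Leaving out any of the 11 libraries gave -0.90 to -1.11, and the 300s alone -1.08. At this low level the value depended on the pseudocount, with -1.68 by limma-voom on reads and -0.73 at a pseudocount of 1. In DK females, against the same NK libraries, Mmp9 fell by 1.83 on the log2 scale (limma adjusted p = 2.70e-08). Across the matrix and fibrosis list 19 of 30 tested members had a positive change (median 0.07), and Mmp9 was the only member with an unadjusted p under 0.05. The sign of that median rested on NK 2: without it the median was -0.03 with 13 of 30 positive, while it was 0.153 without HK 3, and -0.025 with the number series (200s or 300s) as a covariate.

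Fatty acid oxidation held the most members with a higher level at an unadjusted p under 0.05. Of 27 tested members 21 had a positive change, the median was 0.096, and 5 had an unadjusted p under 0.05, all higher, against 1.4% of all genes; none passed the test. Cpt1a, which loads long-chain fatty acids onto carnitine for entry into mitochondria, stood at 62.2, 74.5, 55, 63.8 and 64.4 FPKM in HK and at 43.2 to 69 in NK (median 49.7), a log2 change of 0.32 (SE 0.12, unadjusted p = 0.0143). Eci1, an isomerase for unsaturated fatty acids, stood at 355.8, 249.9, 165, 196 and 150.3 FPKM against 105 to 241 (median 141), a log2 change of 0.57 (SE 0.22, unadjusted p = 0.0162). For both genes NK 6 lay among the HK libraries, and it was the only NK library above 200 FPKM for Eci1. Acadl, a dehydrogenase of long-chain acyl-CoA, stood at 169, 156, 144, 141 and 137 FPKM against 100.7 to 158 (median 129.8), a log2 change of 0.21 (SE 0.085, unadjusted p = 0.0164), with the groups overlapping. The peroxisomal enzyme Ehhadh had 0.31 (SE 0.15, unadjusted p = 0.0412). In the 300s alone the list median was 0.054, with 18 of 27 members positive. In DK females 23 of the 27 were called higher against the same NK libraries, with a median of 0.504. Over all 14264 tested genes, 2804 were called higher in that comparison.

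Respiratory chain genes had the opposite sign. Of 34 tested members of oxidative phosphorylation, 1 had a positive change, the median was -0.092, and none had an unadjusted p under 0.05. These members are all nuclear genes. The share of mitochondrial transcripts, given above, was 8.59% to 10.68% in HK and 10.19% to 12.74% in NK. Without NK 2 the median was -0.0083 with 13 of 34 positive, and in the 300s alone 0.039 with 25 of 34 positive. Cytosolic ribosome genes had a median of -0.02 with 12 of 34 positive, 0.058 with 31 of 34 positive without NK 2, and 0.053 with 27 of 34 in the 300s alone.

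Of the antigen presentation genes 18 of 23 had a negative change in HK, with none past the test. Class II molecules of the major histocompatibility complex, called RT1-B and RT1-D in the rat, show peptides to helper T cells, and B2m is the invariant chain of class I. RT1-Ba, a class II alpha chain, stood at 63, 41.1, 50.2, 43.5 and 43.7 FPKM in HK and at 55.1 to 76.9 in NK (median 59.9), a log2 change of -0.36 (SE 0.12, 95% interval -0.61 to -0.12, unadjusted p = 0.00446). RT1-Da, the other class II alpha chain, stood at 162, 127, 130.4, 126 and 133 FPKM against 149 to 219.8 (median 161), a log2 change of -0.31 (SE 0.11, 95% interval -0.53 to -0.094, unadjusted p = 0.00622). HK 1 lay inside the NK range and the other 4 HK libraries below it for both genes, and NK 2 was the highest. B2m stood at 508, 433, 449, 433 and 436 FPKM against 474 to 671 (median 499), a log2 change of -0.21 (SE 0.090, unadjusted p = 0.0291), with the same 2 libraries at the top of their groups. The class II beta chain RT1-Db1 had -0.24 (SE 0.12, unadjusted p = 0.0477).

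Of the 23 tested members, 5 had a positive change, the median was -0.152, and 5 had an unadjusted p under 0.05, all lower, against 1.27% of all genes. The fifth was RT1-DMb, a subunit of the peptide loader, with 0.268, 0.201, 0.417, 0.131 and 0.331 FPKM in HK and 0.137 to 19.2 in NK. NK 2, NK 3 and NK 4 were at 19.2, 6.94 and 12.7 FPKM and the other NK libraries below 1, and the male HK libraries also ran from 0.283 to 7.5. Markers of immune cells had the same sign: 5 of 22 tested macrophage and myeloid markers were positive (median -0.115) and 2 of 16 lymphocyte markers (median -0.062). The summed macrophage and myeloid level was 3093 to 4438 FPKM in HK (median 4189.7) and 2351 to 4543 in NK (median 3059), most of it Spp1, which is also an injury gene of tubule cells. Without Spp1 the sum was 1235 to 1610.2 FPKM in HK (median 1377) and 1374 to 1739.5 in NK (median 1459). The summed lymphocyte level was 40 to 69.9 FPKM in HK and 51 to 69.4 in NK, with Gzmb under 0.1 FPKM in all 11 libraries, and the part of these cells in the class II values was not tested. Interferon response genes had 5 of 24 positive (median -0.176, -0.275 without NK 2 and -0.126 without HK 3). Gbp5, an interferon-induced GTPase, stood at 1.52, 1.48, 1.17, 1.53 and 1.61 FPKM in HK and at 1.71 to 2.62 in NK, a log2 change of -0.33 (SE 0.12, unadjusted p = 0.0119), with every HK library below NK. In males the antigen presentation list had a median of -0.135.

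The promoters of the 2 alpha chains are shown because both lay lower in the same HK libraries and both carry the inverted CCAAT letters of the class II Y box, the site of NF-Y. The bases are the 100 just before the RefSeq start site in GRCr8, 5′ to 3′, at chr20:4576957-4577056 (plus strand) and chr20:4515315-4515414 (plus strand), with the match to CTGATTGG in capitals.
RT1-Ba: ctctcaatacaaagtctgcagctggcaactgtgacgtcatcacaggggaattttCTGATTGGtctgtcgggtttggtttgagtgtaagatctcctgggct
RT1-Da: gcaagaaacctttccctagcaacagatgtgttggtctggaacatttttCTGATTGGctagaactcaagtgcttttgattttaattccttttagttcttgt
CTGATTGG, searched on both strands, occurred in the same window of 1.82% of 33469 RefSeq promoters and of 7 of the 21 list members with an entry, all 7 of them RT1 genes, which share sequence. The log2 change was positive for 2 of the 7, RT1-A2 (0.13) and RT1-CE5 (0.15), both outside the naming rule and chosen for this reason. The motif was chosen after the values were seen, and a match is only a run of letters.

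**Figure D3:**
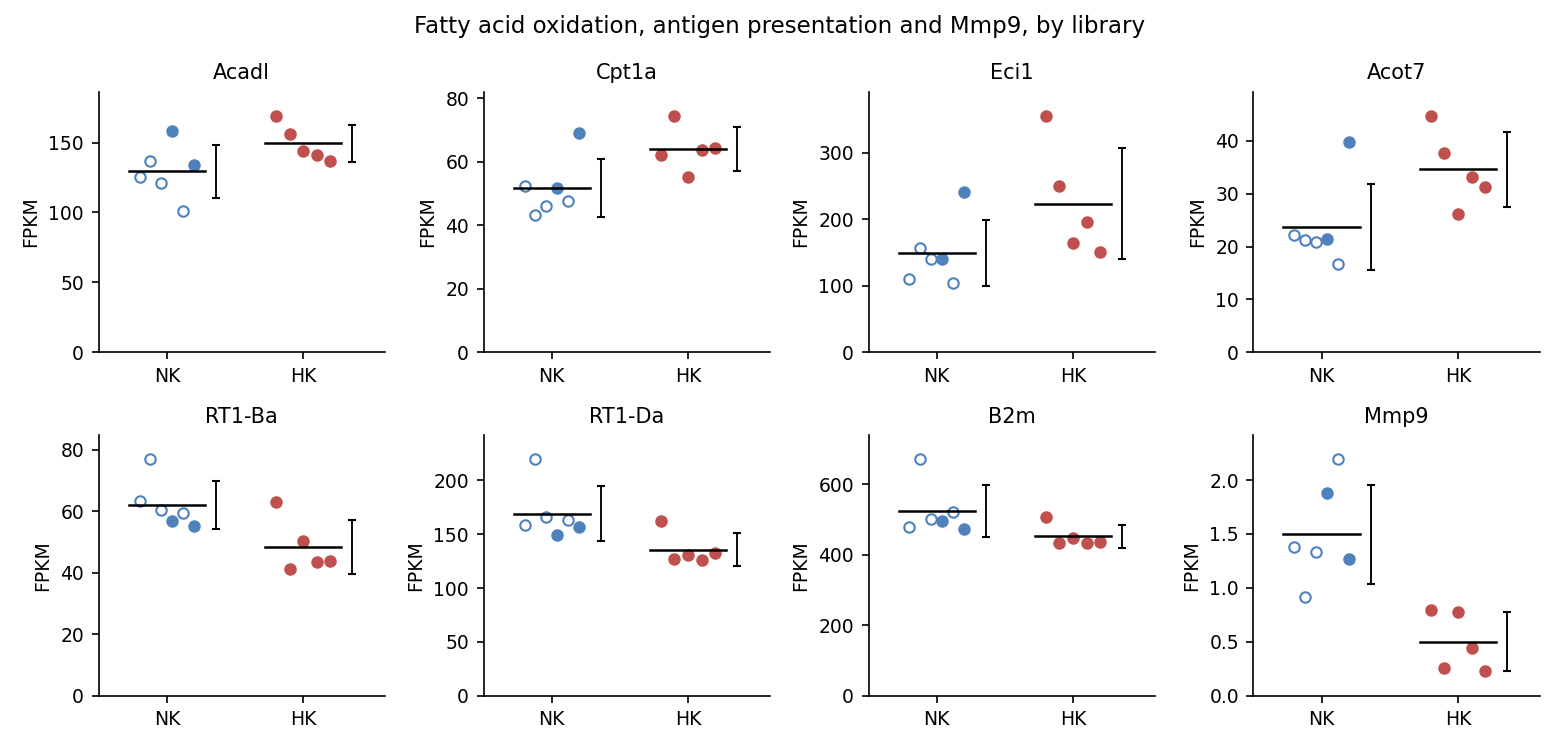
FPKM of 4 genes of fatty acid metabolism (Acadl, Cpt1a, Eci1, Acot7), 3 of antigen presentation (RT1-Ba, RT1-Da, B2m) and Mmp9 in each female library, NK in blue and HK in red; open circles are numbered in the 200s, filled ones in the 300s, lines are means and bars 1 SD. Mmp9 is the gene of the 8 whose groups do not overlap.

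The circadian clock list had the most negative median of the lists with at least 10 tested members, -0.256, with 4 of 19 members positive, 1 member higher and 1 lower at an unadjusted p under 0.05, and none past the test. In the clock, the activators BMAL1 (Arntl) and NPAS2 switch on genes through E-boxes, and the products of such genes, among them Per2, Ciart and Bhlhe41, repress them in turn, so the 2 arms peak at different hours. Ciart, a repressor, stood at 1.41, 1.22, 3.97, 1.73 and 1.1 FPKM in HK and at 0.527 to 6.81 in NK (median 4.27), a log2 change of -0.87 (SE 0.43, unadjusted p = 0.0501). Bhlhe41, also a repressor, stood at 4.72, 3.96, 8.94, 3.94 and 6.51 FPKM against 5.75 to 10.7 (median 8.61), a log2 change of -0.60 (SE 0.19, 95% interval -0.99 to -0.20, unadjusted p = 0.00402). Arntl stood at 3.76, 3.94, 1.87, 2.23 and 3.17 FPKM against 1.15 to 3.17 (median 1.31), a log2 change of 0.70 (SE 0.27, 95% interval 0.14 to 1.25, unadjusted p = 0.0155). HK 3 lay on the NK side and NK 6 on the HK side for Ciart and Arntl.

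Npas2 had a log2 change of 0.38 (SE 0.21, unadjusted p = 0.0734). Dbp, an output of the clock, had -0.40 (SE 0.31, unadjusted p = 0.206) and the repressor Per2 -0.36 (SE 0.23, unadjusted p = 0.134). Both were chosen after their values were seen. NK 6 was the lowest of the 11 libraries for Ciart, Dbp and Per2, and HK 3 the highest HK library. The labels give no hour of collection, and its part in these values was not tested. In the 300s alone the list median was 0.036 with 13 of 19 members positive, and the log2 changes were 0.036 for Ciart, -0.52 for Bhlhe41 and 0.40 for Arntl. The list median was 0.029 with the number series, 200s or 300s, as a covariate. In males the list median was 0.307.

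Ciart and Bhlhe41 are shown with their promoters because HK 1, HK 2, HK 4 and HK 5 lay below 5 of the 6 NK libraries for both genes, and both carry the E-box CACGTG in the 100 bases before the RefSeq start site in GRCr8, at chr2:186112247-186112346 (minus strand) and chr4:180569356-180569455 (minus strand); capitals mark each match, 5′ to 3′.
Ciart: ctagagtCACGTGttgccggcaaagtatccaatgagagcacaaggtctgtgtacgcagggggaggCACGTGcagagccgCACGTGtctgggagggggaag
Bhlhe41: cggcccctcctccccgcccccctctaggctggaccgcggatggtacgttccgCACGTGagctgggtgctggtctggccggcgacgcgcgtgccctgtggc
The Ciart window holds 3 matches and the Bhlhe41 window 1. CACGTG, the same on both strands, occurred in 2.79% of 33469 promoters and in 2 of 17 list members with an entry. This motif too was chosen after the values were seen.

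**Figure D4:**
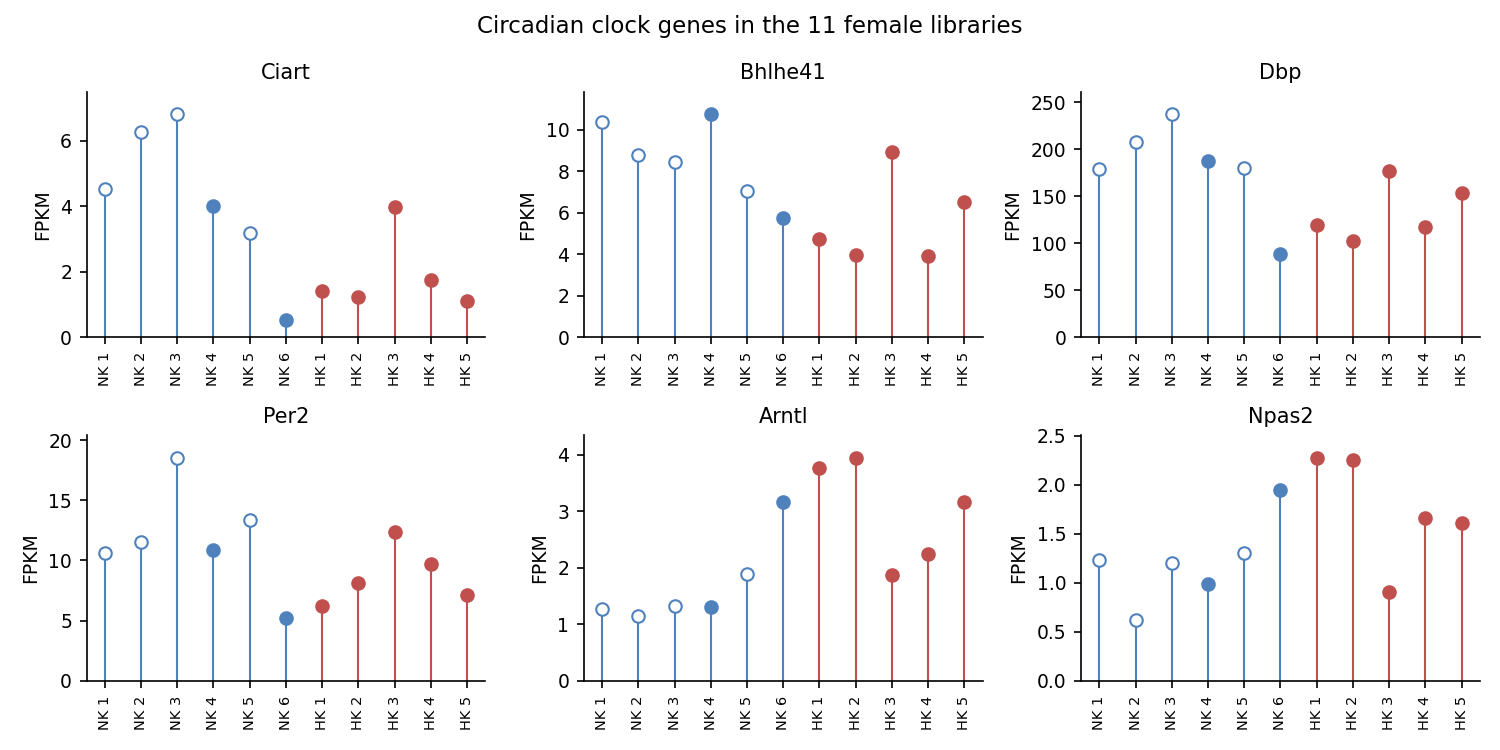
FPKM of 6 clock genes in each of the 11 female libraries, NK in blue and HK in red, with open circles for libraries numbered in the 200s. NK 6 stands at the level of most HK libraries, and HK 3 near the level of most NK libraries, for Ciart and Arntl.

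Tubular injury genes lay higher in HK in 22 of 26 tested members, with a median of 0.184 and none with an unadjusted p under 0.05. Lcn2, the iron-binding protein NGAL, stood at 54.6, 50.1, 27.3, 61.8 and 36.6 FPKM in HK and at 14.4 to 48.5 in NK (median 28.7), a log2 change of 0.68 (SE 0.38, 95% interval -0.092 to 1.46, unadjusted p = 0.0821). Havcr1, the injury molecule KIM-1, stood at 55.6, 33.6, 23.9, 75.3 and 26.1 FPKM against 14.1 to 50.8 (median 22.3), a log2 change of 0.73 (SE 0.45, 95% interval -0.19 to 1.65, unadjusted p = 0.115). HK 1 and HK 4 were above every NK library for both genes and HK 3 lay inside the NK range. Spp1, osteopontin, had 0.58 (SE 0.34, unadjusted p = 0.0955), Sox9, a factor of regenerating tubule cells, 0.44 (SE 0.24, unadjusted p = 0.0787), and the chaperone Clu 0.40 (SE 0.25, unadjusted p = 0.113). In the 300s alone the list median was -0.0092, with 12 of 26 positive; with number series as covariate it was 0.029. Alone in the 300s, Lcn2 had 0.24 and Havcr1 0.18.

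Cell cycle genes had 18 of 26 members positive (median 0.086, and 0.021 without NK 4 or without HK 3). Mcm2, a helicase subunit of DNA replication, stood at 7.56, 7.13, 7.59, 7.3 and 6.97 FPKM in HK and at 5.69 to 6.59 in NK (median 6.28), a log2 change of 0.22 (SE 0.10, unadjusted p = 0.0405), with every HK library above NK. Plk1, a mitotic kinase, had 0.38 (SE 0.17, unadjusted p = 0.0349). Among single members of other lists, Srxn1, which repairs oxidised peroxiredoxin, had 0.43 (SE 0.20, unadjusted p = 0.037), the cholesterol synthesis enzyme Hsd17b7 0.26 (SE 0.13, unadjusted p = 0.046) and the pericyte marker Rgs5 -0.48 (SE 0.23, unadjusted p = 0.0495). Immediate early genes had 6 of 20 positive (median -0.183, and -0.071 without HK 3 or -0.066 with the number series as covariate). Medians of the remaining lists with at least 10 members lay between -0.075 for smooth muscle and mesangium and 0.127 for complement and acute phase. These ends moved with the libraries used: smooth muscle and mesangium was -0.241 without NK 2, -0.012 without NK 4, -0.0095 without HK 3 and -0.302 in the 300s alone, and complement was -0.014 in the 300s alone. Endothelium was -0.034, and -0.134 with 0 of 13 positive without NK 2. Without HK 3 the endothelium median was 0.00043 with 7 of 13 positive, and in the 300s alone it was -0.011.

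**Figure D5:**
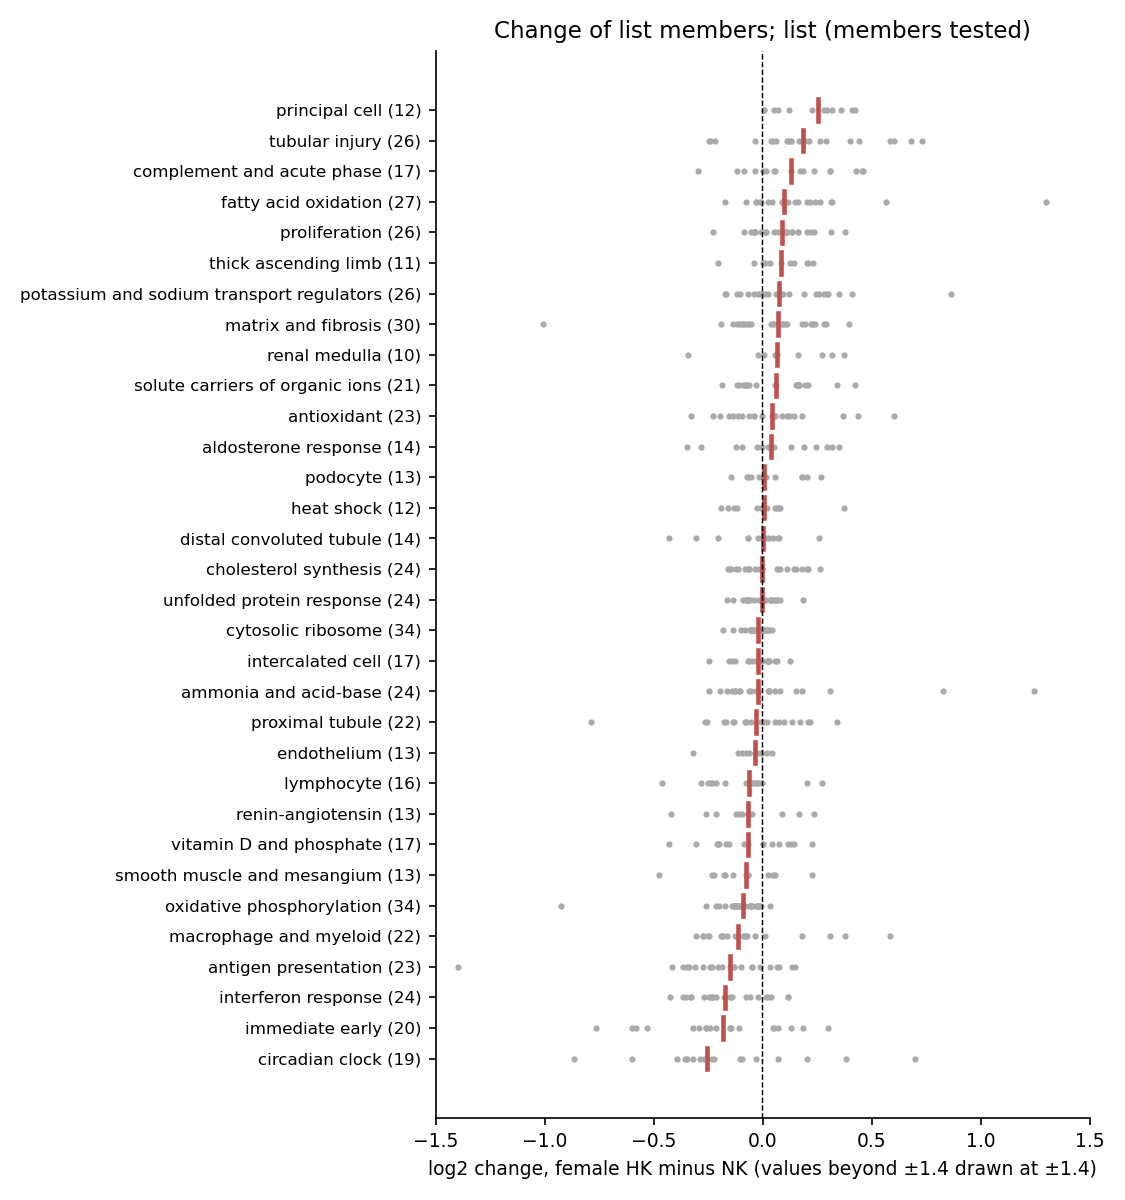
Log2 change of each tested member (grey) and the list median (red) for the 32 lists with at least 10 tested members; the dashed line is the median of all genes, -0.0032, and RT1-DMb is drawn at the edge. Medians run from -0.256 for the circadian clock to 0.252 for principal cells.

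The same diets were given to males, with 6 libraries each, and the 2 sexes share no library, so the difference between the responses was tested. All 12 of these male libraries are numbered in the 300s, while 4 of the 6 female NK libraries are in the 200s, so sex and number series cannot be fully told apart here. In males 0 genes (0%) were called by limma, with 1076 (7.54%) at an unadjusted p under 0.05, 471 higher (3.3%) and 605 lower (4.24%). For the difference, female minus male, 0 genes (0%) were called by limma, the smallest adjusted p was 0.709, and 805 genes (5.64%) had an unadjusted p under 0.05, 453 with a higher female change (3.18%) and the rest with a lower one (2.47%). Limma-voom also called 0, with 840 at an unadjusted p under 0.05. The lowest p for a higher female response belonged, among others, to Snx4, Slc39a1, Rprm and Arntl, and for a lower one to Zc3h18, Lipg, Lonrf1, Bhlhe41 and Olfml2a, none past the test. Arntl had log2 changes of 0.70 in females and -0.64 in males, a difference of 1.34 (SE 0.38, unadjusted p = 0.00123). Bhlhe41 had -0.60 and 0.30, a difference of -0.90 (SE 0.27, unadjusted p = 0.00191). Lipg, endothelial lipase, had -0.32 and 0.56. In each of these pairs the sexes had opposite signs.

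Outside that ranking, which needed a mean FPKM of at least 2, Mmp9 had log2 changes of -1.01 in females and 0.35 in males, a difference of -1.35 (SE 0.30, unadjusted p = 7.56e-05). Among the injury genes, Lcn2 had 0.68 in females and -0.89 in males, a difference of 1.57 (SE 0.52, unadjusted p = 0.0052), and Havcr1 0.73 and -1.12, a difference of 1.85 (SE 0.62, unadjusted p = 0.0055). The median of the injury list was 0.184 in females and -0.481 in males. Among the female libraries in the 300s, the series of all these males, the values were -0.0092 for the list, 0.24 for Lcn2 and 0.18 for Havcr1. The sodium channel subunit Scnn1a had 0.35 in females and 0.33 in males, and Slc12a3 -0.021 and 0.34, a difference of -0.36 (SE 0.30, unadjusted p = 0.239). With library weights, 6 genes were called for the difference between the sexes, among them Clu, Snx4, Plk1 and Mmp9.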

How the data were processed

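Kidney cortex RNA was sequenced after poly-T capture, per the labels' protocols, and the submitters' processing notes name featureCounts 1.5.0-p3, HISAT2 2.0.5, fastp and StringTie 1.3.3b; the build was not given in the sources used here, and whether libraries were directional is not stated. The authors deposited FPKM values and gene lengths for 32545 genes. FPKM times length gave whole reads within 0.01 for 100% of values, so reads were recovered. The library size behind the FPKM was 0.887 to 1.1 times the sum of reads in the 11 libraries.

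All 35 libraries were fitted in limma 3.58.1 (R 4.3.3) on log2(FPKM + 0.5), with 6 group means, a variance trend, 29 residual degrees of freedom and Benjamini-Hochberg adjustment; adjusted p under 0.05 was called. Lists and members were chosen with earlier results of these data known: 38 lists, 771 entries, of which 679 of 718 distinct symbols matched. The 12 genes of lowest p in each direction with a mean FPKM of at least 2 were named, 5 for the sex difference, 30 fixed genes, and up to 4 per list; Klk1 was not matched, and some genes that the rule names are not reported here. RT1-Db1, Ehhadh, Dbp and Per2 were named after their values were seen. Promoters are from RefSeq (GRCr8). The fit was tested on simulated data. Figures used matplotlib 3.10.9, lists Python 3.11.15 with pandas 2.3.3. No library was a copy of another (chi-square per gene 12.09 to 49.09). Antisense and overlapping genes cannot be told apart without strand.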

Additional observations from a re-analysis of the deposited data

Results flagged for a closer look

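In 166 groups of values (83 named genes in HK and NK) the highest or lowest library was set against the others of its group. By Dixon's 95% criterion 21 stood apart. Chance gives about 1 in 20 for independent normal values. These were raw FPKM of chosen genes from the same libraries, so the 21 cannot be read against that rate. NK 6 accounted for 8 of the 21, each as the highest NK library. These were Atp12a at 5.11 FPKM (next 1.41), Ace at 4.01 (next 2.69), Slc38a3 at 105.2 (next 57.2), Acot7 at 39.7 (next 22.2), Slc25a34 at 42.3 (next 18.5), Vnn1 at 54.7 (next 27), Cpt1a at 69 (next 52.5) and Arntl at 3.17 (next 1.89).

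NK 2 was the highest NK library for the antigen presentation genes RT1-Ba at 76.9 FPKM, RT1-Da at 219.8 and B2m at 671.1. HK 1 was the highest HK library for RT1-Da at 162.2, B2m at 508.1 and RT1-Db1 at 17.9. HK 3 stood apart for Ace at 3.56 and Ciart at 3.97 as the highest HK library and for Slc39a1, a zinc importer, at 39 as the lowest. The others were Kcnj1 in NK 5 at 117.7, Gbp5 in NK 5 at 2.62, Rprm in HK 4 at 8.89 and Rbp4 in NK 4 at 31.8 (next 3.48).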

How the results depend on the processing

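The count of 0 called genes in HK against NK held under a pseudocount of 0.1 or 1, both filters, median-ratio scaling, quantile normalization, library sums, library weights, voom, the number series as a covariate, and without each of the 11 libraries in turn (0 to 0, with 308 to 633 genes at an unadjusted p under 0.05, the highest without NK 6). It was 1 in the fit of the 11 female libraries alone (SNORA41, lower) and 1 in the 300s alone (Nfs1, lower). For the female minus male difference the count was 0 without each library (0 to 0), 6 with library weights (Clu, Snx4, Plk1, Mmp9 and 2 LOC symbols), and 4 with library weights in the 4 HK and NK groups (Lipg, Plk1, Mmp9 and 1 LOC symbol), an alternative chosen after seeing the data; the cause was not tested. The other 2 added alternatives, the 4 groups alone and leaving out NK 2 and NK 4 together, gave 0 for both counts. Replicate numbers did not pair the libraries: the correlation of deviations between same-numbered HK and NK libraries was -0.14, 0.031, 0.1, 0.12 and 0.00031. With the replicate block 0 genes were called, with 472 at an unadjusted p under 0.05, and 0 for the difference between the sexes. Of 2240 values of 83 named genes under the alternatives, 0 were called, and 55, in 17 genes, had the opposite sign without passing the test. Those genes were Slc12a3, Kcnj16, Nr3c2, Slc26a4, Umod, Cyp27b1, Trpm6, Dbp, Slc38a3, Ace, Agtr1a, Ciart, Kcnj1, Pck1, Per2, Rhcg and Slc25a34. Library sums moved the median of all genes to 0.037.

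With 5 and 6 libraries the median SE of a log2 change was 0.131. Mmp9, at a log2 change of -1.01 and an unadjusted limma p of 5.24e-05, still had an adjusted p of 0.621. A 1.5-fold change could therefore also go uncalled in many genes. All HK libraries are numbered in the 300s, and 4 of 6 NK libraries in the 200s, so diet and number series are partly confounded; the 300s alone hold 2 NK libraries.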

Other observations

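Some genes were near 0 in most libraries and high in a few, within as well as between groups. These were chosen after their values were seen. LOC100911363, an uncharacterised locus, stood at 69.6, 1.5, 10.5, 75 and 51.5 FPKM in HK 1 to HK 5 and at 1.17 to 2.35 in NK, but female DK libraries ran from 1.49 to 70.6. Mif, a cytokine, was at 149.1 and 200.2 FPKM in NK 2 and NK 6, at 6.8 to 9.46 in the other NK libraries, and at 7.02, 9.06, 8.77, 8.65 and 5.11 in HK; 1 female DK library had 929. Hprt1, a purine salvage enzyme, was at 10.1, 14.8, 0.606, 0.0954 and 0.20 FPKM in HK and at most 0.601 in NK. It reached 61.7 FPKM in female DK, 17.1 in male NK and 18 in male DK. Mrpl53, a mitochondrial ribosomal protein, was at 115 FPKM in HK 3 and at most 4.52 in the other HK libraries. Nfs1, a cysteine desulfurase, was at 39.4 and 40.7 FPKM in NK 4 and NK 6, at 1.08 to 1.3 in the other NK libraries, and at 0.985, 1.6, 9.55, 1.53 and 1.12 in HK. Car15, a carbonic anhydrase, was at 7.18, 51.2, 1.09, 1.1 and 52.4 FPKM in HK and 0.468, 1.49, 5.36, 18.2, 0.44 and 13 in NK.

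SNORA41, a small nucleolar RNA that poly-T capture does not target, was listed at 0 in 4 HK libraries and at 0.441 FPKM in the other, and at 1.39 to 2.56 in NK. In DK females it ran from 0.325 to 2.86 FPKM. In NK 4, the library with adipose markers, the lipogenic genes Scd1 and Thrsp stood at 126 and 229 FPKM, with at most 0.843 and 0.212 in the other NK libraries, and the fat cell proteins Fabp4, Cfd and Adipoq at 289.7, 84.8 and 46.9. In NK 2 the globin genes Hba1 and Hbb stood at 475 and 239 FPKM, with at most 87.2 and 34.4 in the other NK libraries.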
